A study of Mus musculus with 57 samples.

Results

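The Cyp4 genes encode cytochrome P450 enzymes that hydroxylate fatty acids and eicosanoids at or near the omega carbon. The 10 members described here are Cyp4a10, Cyp4a12a, Cyp4a12b, Cyp4a14, Cyp4a31, Cyp4a32, Cyp4f13, Cyp4f14, Cyp4f15 and Cyp4v3. They were taken by symbol, and all 10 were found among the 54307 gene rows of the expression table. Each member passed the filter on low values in every comparison. Bulk RNA-seq came from the livers of 57 wild-type male C57BL/6JJcl mice, 40 given 1 of 7 liver toxicants and 17 given a vehicle. The labels number the livers of a group and do not state outright that each came from a separate mouse, as is taken here, so p-values measure the spread between these livers. The mice were 6 weeks old, were acclimatised for 1 week and fasted for 12 h, and the liver was taken 24 h after dosing. By gavage, 4 mice received alpha-naphthyl isothiocyanate (ANIT), 6 acetaminophen (APAP), 7 methylene dianiline (MDA) and 5 thioacetamide (TAA), and 13 control mice received 0.5% methylcellulose. By intraperitoneal injection, 7 mice received carbon tetrachloride (CCl4) and 4 galactosamine (GAL), with 2 saline controls. By intravenous injection, 7 mice received the lectin concanavalin A (ConA), with 2 saline controls. The protocol names corn oil among the vehicles, but all controls received methylcellulose or saline, so that for a compound given in corn oil the compound and the vehicle cannot be told apart.

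Omega hydroxylation by CYP4 enzymes opens a side route of fatty acid breakdown. The hydroxylated acid is oxidised by alcohol and aldehyde dehydrogenases to a dicarboxylic acid, which peroxisomes shorten. In mouse liver Cyp4a10 and Cyp4a14 are classical targets of the fatty acid receptor PPAR alpha and are induced by fasting. Cyp4a12a and Cyp4a12b are male-predominant and depend on growth hormone and androgen, and Cyp4a12a makes the vasoactive eicosanoid 20-HETE. The Cyp4f enzymes are known for inactivating leukotriene B4, and Cyp4f14 is a leukotriene omega hydroxylase of mouse liver. Cyp4v3 is the mouse counterpart of human CYP4V2, a fatty acid hydroxylase mutated in Bietti crystalline dystrophy.

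The reference coding sequences show which members the counting could mix up. The following 60 bases, from the coding sequences of GENCODE M21, surround the haem-binding cysteine codon. Capitals mark bases that differ from Cyp4a10 (for Cyp4a12a and Cyp4a14) or from Cyp4f14 (for Cyp4f13, Cyp4f15 and Cyp4v3).
Cyp4a10: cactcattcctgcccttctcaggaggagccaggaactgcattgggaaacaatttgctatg
Cyp4a12a: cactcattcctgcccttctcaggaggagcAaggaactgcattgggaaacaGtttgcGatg
Cyp4a14: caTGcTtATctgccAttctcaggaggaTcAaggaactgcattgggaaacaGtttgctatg
Cyp4f14: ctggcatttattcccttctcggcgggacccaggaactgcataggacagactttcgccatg
Cyp4f13: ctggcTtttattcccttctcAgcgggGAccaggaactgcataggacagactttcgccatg
Cyp4f15: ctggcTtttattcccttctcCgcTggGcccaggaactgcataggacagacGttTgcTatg
Cyp4v3: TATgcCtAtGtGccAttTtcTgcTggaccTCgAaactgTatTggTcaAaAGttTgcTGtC
Cyp4a31 and Cyp4a32 carry the same 60 bases as Cyp4a10, and Cyp4a12b the same as Cyp4a12a. Over the whole coding sequence Cyp4a12a and Cyp4a12b were 98.5% identical, Cyp4a10 and Cyp4a32 97.2%, Cyp4a10 and Cyp4a31 96.6%, and Cyp4f14 and Cyp4f15 80.0%. Stretches of 31 bases shared with another gene made up 62.2% of the Cyp4a12a transcript, 62.9% of Cyp4a12b, 65.3% of Cyp4a32, 45.5% of Cyp4a10 and 33.7% of Cyp4a31. For Cyp4a14 the share was 2.07%, and for Cyp4f13, Cyp4f14, Cyp4f15 and Cyp4v3 it lay between 7.49% and 9.76%. The split of reads within the pair Cyp4a12a and Cyp4a12b, and within the trio Cyp4a10, Cyp4a31 and Cyp4a32, is therefore uncertain, and values of the summed rows are given beside the single rows. The Cyp4a genes lie on chromosome 4, the Cyp4f genes on chromosome 17 and Cyp4v3 on chromosome 8 (GENCODE M21, GRCm38).

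The promoters of the 3 Cyp4f genes are shown because Cyp4f14 and Cyp4f15 were called lower with all 7 compounds and Cyp4f13 with 5. Each is the 250 bases before the start site in RefSeq (GRCm38.p6), on the strand of the gene, and capitals mark a CCAAT motif read on the opposite strand. For Cyp4f14, which has 4 start sites in that table, the most upstream was used. The windows are chr17:32917357-32917606 on the minus strand for Cyp4f14, chr17:32685409-32685658 on the plus strand for Cyp4f15 and chr17:32947362-32947611 on the minus strand for Cyp4f13.
Cyp4f14: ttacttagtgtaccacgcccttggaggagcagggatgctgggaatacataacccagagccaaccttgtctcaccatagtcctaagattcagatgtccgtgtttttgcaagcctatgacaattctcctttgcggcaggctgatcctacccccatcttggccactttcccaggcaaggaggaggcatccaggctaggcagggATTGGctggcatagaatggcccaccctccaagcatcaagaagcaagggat
Cyp4f15: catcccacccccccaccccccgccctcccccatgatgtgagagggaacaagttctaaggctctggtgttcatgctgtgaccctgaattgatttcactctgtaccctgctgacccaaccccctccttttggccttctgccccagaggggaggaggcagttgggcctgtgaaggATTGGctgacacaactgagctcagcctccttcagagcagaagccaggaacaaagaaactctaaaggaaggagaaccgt
Cyp4f13: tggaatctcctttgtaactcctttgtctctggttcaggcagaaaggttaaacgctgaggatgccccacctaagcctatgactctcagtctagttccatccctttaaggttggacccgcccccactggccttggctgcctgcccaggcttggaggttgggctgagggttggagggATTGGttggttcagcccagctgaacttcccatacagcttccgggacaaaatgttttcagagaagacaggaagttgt
The motif begins 50 bases before the start in Cyp4f14, 78 in Cyp4f15 and 76 in Cyp4f13. It is not particular to these genes: the window of Cyp4a32 holds it on the same strand, 80 bases before the start, and that of Cyp4v3 does not hold it. On either strand CCAAT occurs in 33.8% of the 32851 windows of this length in the table. The hormone receptor core AGGTCA, searched on both strands and found in 14% of all windows, and its direct repeat with 1 base between the copies, found in 0.0335%, were in none of these 3 windows, nor in those of Cyp4a32 and Cyp4v3. TTCNNNGAA, the core bound by STAT factors and found in 7.02% of windows, occurred once in that of Cyp4f13. Cyp4a10, Cyp4a12a, Cyp4a12b, Cyp4a14 and Cyp4a31 have no entry in that table.

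Estimated counts summed to between 13826343 and 35075809 per library, with a median of 21532116, and mitochondrial genes held 5.11% to 39.31% of them. Levels are given in CPM (counts scaled to the library's total and then by TMM). The scaling mattered: TMM factors ran from 0.477 in a ConA liver to 1.78 in a GAL liver. With library totals in place of TMM the median over all genes (log2 fold change) moved from 0.08 to 0.84 with GAL, from 0.10 to 0.53 with CCl4, from 0.03 to -0.56 with ConA, from -0.01 to -0.23 with ANIT and from 0.07 to 0.22 with APAP. Among all genes the calls with library totals were 5515 higher of 6359 with GAL (1981 of 4416 with TMM), 4565 of 5665 with CCl4 (2759 of 5152), 1101 of 4853 with ConA (2381 of 4827), 822 of 3473 with ANIT (1965 of 3967) and 2937 of 4050 with APAP (2407 of 4436). Member calls that do not hold with library totals are named beside the results. The summed level of 7 hepatocyte markers was 49700 to 118000 CPM in gavage vehicle mice, and no hepatocyte marker was at 0.

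In vehicle livers Cyp4a14, at 576 ± 227 CPM (SD, n = 17), and Cyp4a10, at 423 ± 160, were the most abundant members. The deposited values look corrected for transcript length, so that levels of different members can be set side by side on this scale. Cyp4f14 followed at 277 ± 45.9 CPM. Cyp4f15 (83.9 ± 15.8), Cyp4a12a (75.2 ± 29.3), Cyp4v3 (72.7 ± 18.3) and Cyp4f13 (55.2 ± 8.65) came next. Of these 4 the first 3 lay within 1 SD of their neighbours, and Cyp4v3 lay more than 1 SD of Cyp4f13 above that gene. Cyp4a32 (20.2 ± 6.00), Cyp4a12b (19.6 ± 8.71) and Cyp4a31 (13 ± 5.41) were the lowest. No member was called between intraperitoneal saline and gavage vehicle, where 0.0131% of all genes were, or between intravenous saline and gavage vehicle, where 0.0263% were. At an unadjusted p under 0.05 edgeR gave 0 members in both, among 570 genes for intraperitoneal and 580 for intravenous saline, and DESeq2 called 0 members, among 157 and 85 genes. In both tests each member's saline mice overlapped the gavage mice. With 2 saline mice the intervals (95%) ran from -1.15 to 0.62 for Cyp4a14 and from -0.33 to 0.42 for Cyp4f14 (intraperitoneal saline, log2 scale).

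**Figure D1:**
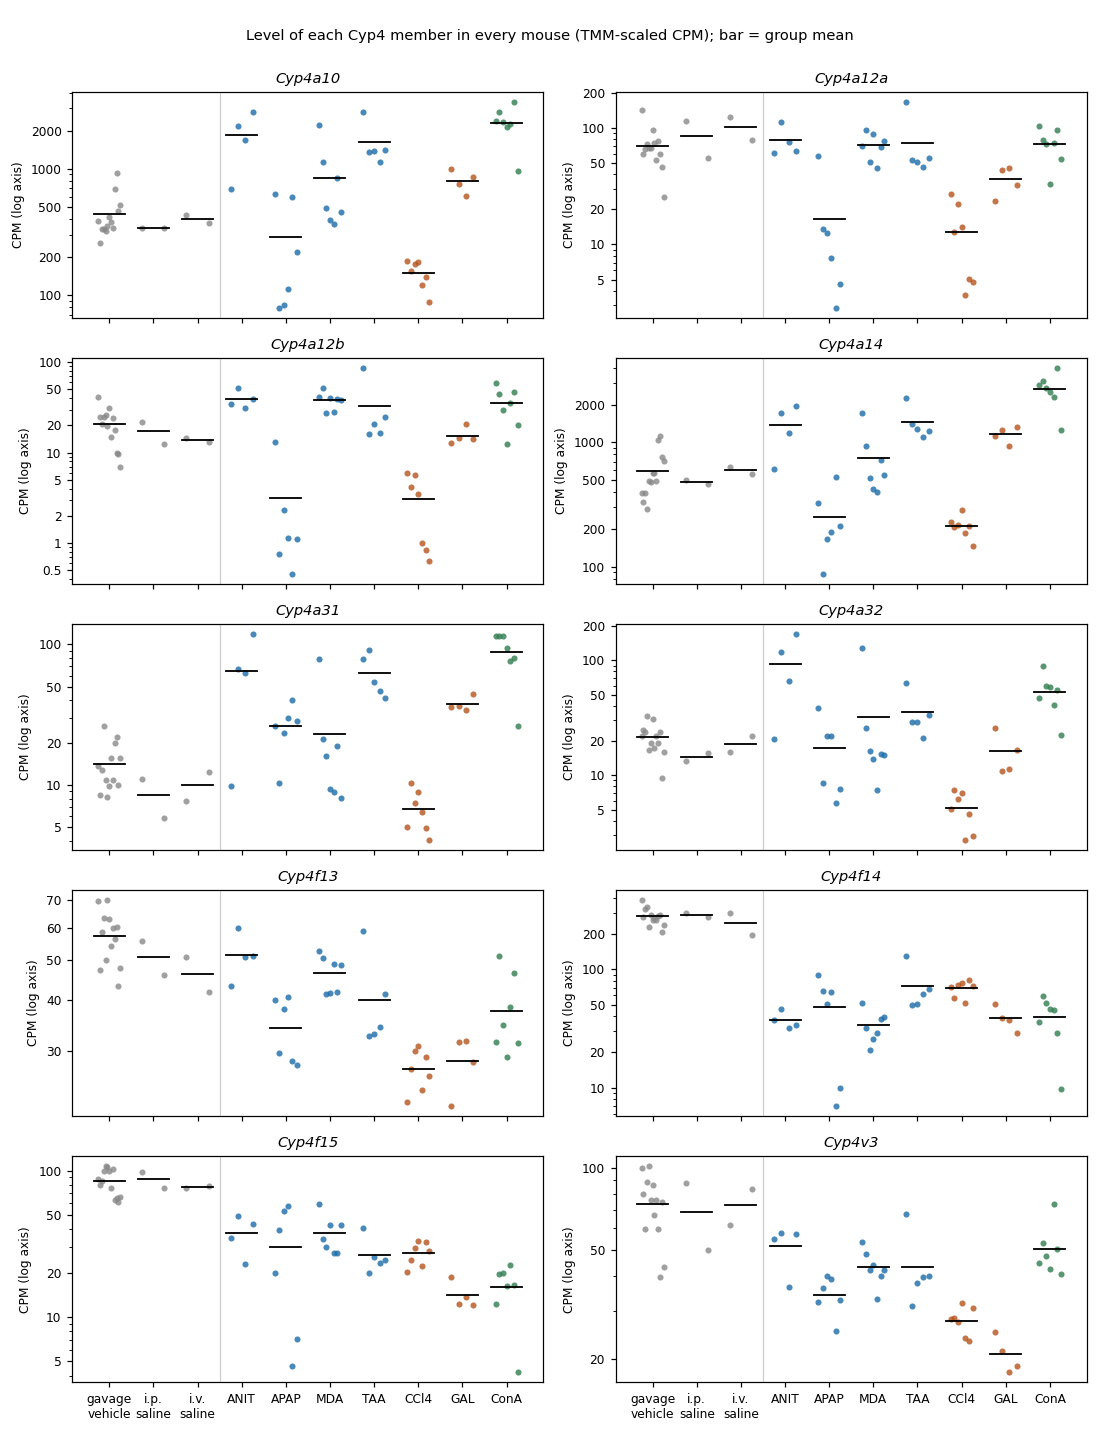
Level of each Cyp4 member (CPM, log axis) in every mouse, by group. Points are mice and bars are group means. Cyp4f14 and Cyp4f15 sit below their vehicle mice with every compound, whereas Cyp4a10 and Cyp4a14 lie above with ANIT, TAA, GAL and ConA on average and below with CCl4.

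The gavage vehicle mice themselves differed by the number they carry in the labels. Cyp4a14 ranged from 289 to 395 CPM in the 4 mice numbered 1 to 4, from 476 to 572 in the 5 numbered 7 to 12, and from 705 to 1120 in the 4 numbered 15 to 18, so that the 3 ranges do not overlap. Cyp4a10 averaged 326 ± 51.4, 363 ± 37.0 and 647 ± 204 CPM (SD) in the same order. Cyp4f15 moved the other way, from 88.0 ± 8.56 and 98.2 ± 13 down to 63.6 ± 2.33 CPM, and the highest mouse of numbers 15 to 18 (65.9) was below the lowest of the rest (75.7). Cyp4a12b was at 27.9 ± 8.96, 23.2 ± 6.14 and 11.0 ± 4.62 CPM. These divisions were seen in the data and no test was made of them. The labels do not say what the numbers stand for, and fits without numbers 15 to 18, chosen after seeing the data, are given where they end a call.

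**Figure D2:**
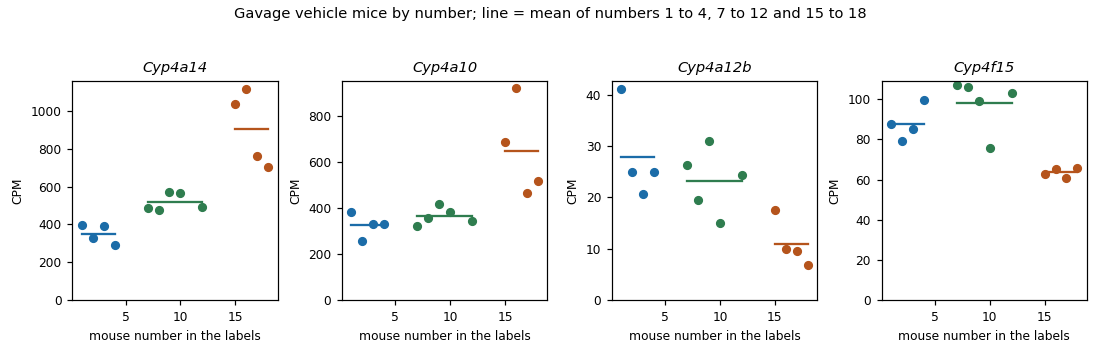
Cyp4a14, Cyp4a10, Cyp4a12b and Cyp4f15 (CPM) in the 13 gavage vehicle mice against their number in the labels. Points are mice and lines are the means of numbers 1 to 4, 7 to 12 and 15 to 18. The mice numbered 15 to 18 hold the highest Cyp4a14, 705 to 1120 CPM, and the lowest Cyp4f15, 60.8 to 65.9 CPM.

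Against the vehicle of the same route, 6 to 9 of the 10 members were called with each compound. With CCl4 9 of 10 members fell and none rose, where 33.5% of all genes were called, 15.6% lower. With APAP 7 fell and 1 rose, where 31.8% of all genes were called, 14.6% lower and 17.3% higher. With ANIT 5 rose and 2 fell (28.2% of all genes called, 14% higher and 14.2% lower). With TAA 4 rose and 4 fell (50.5% called, 26.4% higher and 24.0% lower). With GAL 3 rose and 5 fell (28.5% called, 12.8% higher and 15.7% lower). With ConA 4 rose and 2 fell (34.2% called, 16.8% higher and 17.3% lower), and with MDA 2 rose and 4 fell (33.8% called, 17.4% higher and 16.4% lower). Members that lay wholly above their controls numbered 2 with TAA, 3 with GAL and 4 with ConA, where 10.2%, 28.2% and 19.2% of all genes did. All members that rose were Cyp4a genes. Cyp4a10, Cyp4a31 and Cyp4a32 share reads, as do Cyp4a12a and Cyp4a12b. They are counted singly here and in the counts below, so their calls are not independent. None of the 3 Cyp4f members was called higher with any compound, with TMM or with library totals, nor was Cyp4v3.

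**Figure D3:**
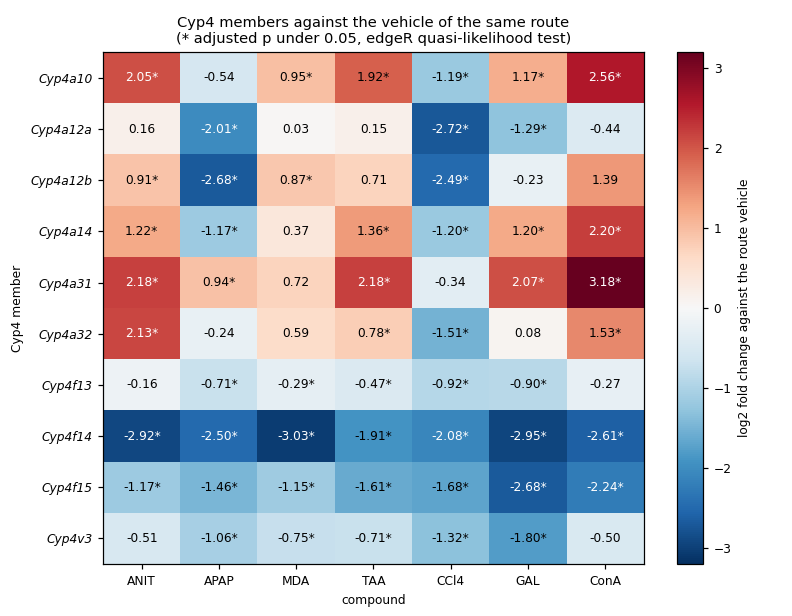
Log2 fold change of each member (rows) with each compound (columns) against the vehicle of the same route, and an asterisk where the adjusted p was under 0.05 (edgeR). Red is higher and blue is lower. Cyp4f14 and Cyp4f15 are lower in all 7 columns, from -3.03 to -1.91 and from -2.68 to -1.15, and every Cyp4a member but Cyp4a31 is called lower with CCl4.

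Cyp4f14, the leukotriene omega hydroxylase, fell with all 7 compounds. Its gavage vehicle mice lay between 208 and 382 CPM with a median of 275. The 4 ANIT livers held 37.3, 45.7, 31.8 and 33.7 CPM, a fall of 7.56-fold (log2 fold change -2.92 ± 0.16 SE, adjusted p = 1.02e-08). MDA livers held 20.7 to 52.3 CPM with a median of 31.8, 8.17-fold lower (-3.03 ± 0.17, adjusted p = 1.79e-10). TAA livers held 130, 49.8, 51.1, 62.2 and 67.5 CPM, 3.76-fold lower (-1.91 ± 0.21, adjusted p = 4.62e-07). In each of these 3 groups the highest treated liver stayed below the lowest vehicle liver, and so did it with APAP. APAP livers ran from 7.01 to 89.2 CPM with a median of 57.6, and the difference was -2.50 ± 0.41 (adjusted p = 0.00012). With the mouse number as a block in the fit this call was lost (-2.91, adjusted p = 0.0829). APAP mice 8 and 11 held 7.01 and 9.92 CPM, and the other 4 at least 51.0.

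Among injected mice the 2 intraperitoneal saline livers held 298 and 278 CPM of Cyp4f14 and the 2 intravenous saline livers 297 and 196. CCl4 livers ran from 51.7 to 80.5 CPM with a median of 71.9 (-2.08 ± 0.14, adjusted p = 1.09e-05). The 4 GAL livers held 50.7, 38.4, 37.5 and 29.1 CPM (-2.95 ± 0.23, adjusted p = 0.00208). ConA livers ran from 9.77 to 59.6 CPM with a median of 45.6 (-2.61 ± 0.45, adjusted p = 0.00182). No treated liver overlapped its saline controls, as was so for 18.5% of all genes with CCl4, 23.9% with GAL and 20.5% with ConA in the lower direction. For the gavage compounds this share was 4.93% with ANIT, 4.68% with APAP, 3.07% with MDA and 9.85% with TAA.

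Cyp4f15, its closest relative here, also fell with all 7 compounds and never overlapped its vehicle mice. Gavage vehicle livers held 60.8 to 107 CPM with a median of 85.2. The falls with gavage compounds were 2.26-fold with ANIT (-1.17 ± 0.20, adjusted p = 0.000341), 2.76-fold with APAP (-1.46 ± 0.39, adjusted p = 0.00678), 2.22-fold with MDA (-1.15 ± 0.16, adjusted p = 1.83e-05) and 3.06-fold with TAA (-1.61 ± 0.19, adjusted p = 6.84e-07). Treated livers ran from 23.1 to 49.2 CPM with ANIT, 4.66 to 57.1 with APAP, 27.6 to 59.2 with MDA and 20.1 to 40.5 with TAA. The APAP call was lost with gavage mice 7 to 12 alone as controls (-1.68, adjusted p = 0.0578) and with the mouse number as a block (-2.0, adjusted p = 0.163). The falls were 3.2-fold with CCl4 (-1.68 ± 0.17, adjusted p = 7.84e-05), 6.41-fold with GAL (-2.68 ± 0.23, adjusted p = 0.00217) and 4.74-fold with ConA (-2.24 ± 0.42, adjusted p = 0.00271). In all, 336 of the 12834 genes tested with all 7 compounds were called lower with each of them (2.62%), and Cyp4f14 and Cyp4f15 are among those 336.

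The balance of the 3 Cyp4f members differed between groups. Cyp4f14 made up 66.3% ± 3.93 (SD, n = 13) of their summed level in gavage vehicle livers, 28.3% ± 4.52 with MDA, 29.6% ± 2.53 with ANIT, 37.3% ± 15.9 with APAP, 40.8% ± 10.5 with ConA, 47.3% ± 5.73 with GAL, 50.9% ± 3.78 with TAA and 55.7% ± 3.29 with CCl4. Among the gavage compounds APAP, up to 59.8%, overlapped the vehicle range of 58.8% to 70.8%, and ANIT, MDA and TAA did not. CCl4 livers, up to 62.1%, and GAL livers, up to 55.4%, stayed below the 2 intraperitoneal saline livers, the lower of which was at 66.0%. These shares follow from the levels above and were not tested.

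Cyp4f13, the third Cyp4f enzyme, changed less. It fell with APAP from 57.2 ± 8.45 to 34.1 ± 6.12 CPM (-0.71 ± 0.13, adjusted p = 0.000325), with TAA (-0.47 ± 0.15, adjusted p = 0.011), with MDA (-0.29 ± 0.10, adjusted p = 0.0271), with CCl4 (-0.92 ± 0.12, adjusted p = 0.000435) and with GAL (-0.90 ± 0.21, adjusted p = 0.0244). With ANIT (-0.16, interval -0.42 to 0.10) and ConA (-0.27, interval -0.86 to 0.31) it was not called. The calls with MDA, CCl4 and GAL were lost with library totals, at -0.34, -0.48 and -0.16, and the GAL call also when either saline mouse, GAL mouse 4 or GAL mouse 8 was left out. The MDA call was lost without MDA mouse 3, 4 or 8 (largest adjusted p = 0.0635).

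Cyp4v3, the counterpart of the human retinal dystrophy gene, fell with 5 compounds. It went from 73.3 ± 19.2 CPM in gavage vehicle livers to 34.4 ± 5.45 with APAP (-1.06 ± 0.18, adjusted p = 0.000196), 43.3 ± 6.41 with MDA (-0.75 ± 0.16, adjusted p = 0.0012) and 43.4 ± 14 with TAA (-0.71 ± 0.21, adjusted p = 0.00862). The saline livers of the intraperitoneal route held 87.8 and 50.0 CPM. GAL livers held 25.1, 21.4, 17.9 and 18.9 CPM (-1.80 ± 0.25, adjusted p = 0.00522) and CCl4 livers 23.3 to 31.9 with a median of 27.9 (-1.32 ± 0.18, adjusted p = 0.000533). With ANIT (-0.51, adjusted p = 0.0814) and ConA (-0.50, adjusted p = 0.143) it missed the threshold, and with library totals both were called lower, at -0.70 and -1.09.

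Cyp4a10 and Cyp4a14, the PPAR alpha induced hydroxylases, went up with some compounds and down with others. Gavage vehicle livers held 258 to 919 CPM of Cyp4a10 with a median of 381. ANIT livers held 688, 2180, 1670 and 2790 CPM (2.05 ± 0.29, adjusted p = 5.5e-05). TAA livers held 2790, 1360, 1370, 1130 and 1410 CPM (1.92 ± 0.25, adjusted p = 3.5e-06). TAA livers lay above every vehicle liver, whereas ANIT mouse 1 lay below gavage vehicle mouse 16, at 919 CPM, and above the other vehicle livers. MDA livers ran from 365 to 2230 CPM with a median of 491 (0.95 ± 0.31, adjusted p = 0.0216), and the call was lost without MDA mouse 1 (0.48, adjusted p = 0.158) and with library totals (0.80). APAP livers fell into 79.4, 83.1, 111 and 219 CPM in 4 mice and 597 and 635 in the other 2, and the difference was not called (-0.54, interval -1.40 to 0.33).

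With TMM the change of Cyp4a10 was highest with ConA, whereas with library totals it was 1.89 with ConA and 1.95 with GAL. It rose from 428 and 372 CPM in the 2 intravenous saline livers to 960 to 3370 with a median of 2350 (5.92-fold, 2.56 ± 0.45, adjusted p = 0.002). In GAL livers it was at 1000, 752, 604 and 854 CPM against 342 and 338 (1.17 ± 0.22, adjusted p = 0.0119), a call lost when either saline mouse was left out (largest adjusted p = 0.0774). In CCl4 livers it was at 88.0 to 185 CPM with a median of 154 (-1.19 ± 0.24, adjusted p = 0.00422). GAL and ConA livers all lay above, and CCl4 livers all below, their saline livers.

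Cyp4a14 rose and fell with a similar set of compounds, except that it was called lower with APAP and was not called with MDA. Gavage vehicle livers held 289 to 1120 CPM with a median of 491. ANIT livers held 615, 1710, 1190 and 1980 CPM (1.22 ± 0.31, adjusted p = 0.00677), and this call was lost with library totals (0.97). TAA livers held 2290, 1400, 1280, 1110 and 1230 CPM (1.36 ± 0.27, adjusted p = 0.000347). APAP livers ran from 87.7 to 527 CPM with a median of 202 (-1.17 ± 0.34, adjusted p = 0.0135), and the call was lost without gavage mice 15 to 18 (-0.77, adjusted p = 0.0694). MDA livers ran from 399 to 1720 CPM with a median of 550 and were not called (0.37, interval -0.24 to 0.97). With injected compounds the changes were 2.20 ± 0.42 with ConA (adjusted p = 0.00291), 1.2 ± 0.18 with GAL (adjusted p = 0.00642) and -1.2 ± 0.19 with CCl4 (adjusted p = 0.001). With library totals the changes were 1.52 with ConA and 1.97 with GAL, which turns their order. ConA livers ran from 1260 to 3970 CPM against 639 and 556 in saline livers, and GAL livers from 942 to 1330 against 503 and 466. CCl4 livers, at 147 to 285 CPM, were all below those saline livers.

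Cyp4a31 and Cyp4a32 are near copies of Cyp4a10. Cyp4a31 rose with ANIT (2.18), TAA (2.18), GAL (2.07), ConA (3.18) and APAP (0.94 ± 0.25, adjusted p = 0.00786), and was not called with MDA or CCl4. In APAP the trio summed gave -0.45 (adjusted p = 0.389). Cyp4a10 makes up most of that sum, so the sum does not bear on the rise of Cyp4a31. Cyp4a32 rose with ANIT (2.13 ± 0.32, adjusted p = 0.000109), TAA (0.78 ± 0.24, adjusted p = 0.0108) and ConA (1.53 ± 0.45, adjusted p = 0.0246) and fell with CCl4 (-1.51 ± 0.34, adjusted p = 0.00831). The TAA call was lost without TAA mouse 1 (0.42), the ConA call without either saline mouse or with library totals (0.87), and the CCl4 call without saline mouse 8. ANIT mouse 1 held 9.83 CPM of Cyp4a31 and 20.6 of Cyp4a32. Both lay within the gavage vehicle ranges, 8.2 to 26.1 and 9.44 to 32.9 CPM. The summed trio was called with 6 compounds, at 2.06 with ANIT, 0.93 with MDA, 1.89 with TAA, -1.17 with CCl4, 1.17 with GAL and 2.55 with ConA.

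Cyp4a12a, the male 20-HETE synthase, fell with APAP, CCl4 and GAL and was called higher with no compound. Gavage vehicle livers held 25.7 to 142 CPM with a median of 67.1. APAP livers ran from 2.87 to 57.1 CPM with a median of 10.1 (4.03-fold lower, -2.01 ± 0.51, adjusted p = 0.0052). CCl4 livers ran from 3.72 to 27.0 CPM with a median of 12.8 against 114 and 55.4 in saline livers (6.61-fold lower, -2.72 ± 0.65, adjusted p = 0.0104), and this call was lost without saline mouse 7 (largest adjusted p = 0.109). APAP mouse 1, at 57.1 CPM, overlapped the vehicle livers, and the other 5 APAP livers, at 13.6 or less, did not. Without that mouse the change was -3.08. With GAL the change was -1.29 ± 0.37 (adjusted p = 0.0439), a call lost with library totals (-0.57) and on leaving out any of 5 of the 6 mice. With ANIT (0.16, interval -0.43 to 0.74), MDA (0.03, interval -0.42 to 0.49) and TAA (0.15, interval -0.51 to 0.81) it was not called. With ConA it was not called with TMM (-0.44), and was called lower with library totals (-1.14).

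Its copy Cyp4a12b fell with APAP (-2.68 ± 0.63, adjusted p = 0.00301; -4.18 without APAP mouse 1) and CCl4 (-2.49 ± 0.74, adjusted p = 0.0282) and rose with MDA from 20.9 ± 9.44 to 37.9 ± 8.32 CPM (0.87 ± 0.26, adjusted p = 0.0115). With ANIT the rise (0.91 ± 0.32, adjusted p = 0.0428) was lost on leaving out any ANIT mouse and with library totals (0.75), and the CCl4 call was lost on leaving out either saline mouse. Summed, the pair gave -2.13 ± 0.52 with APAP (adjusted p = 0.00416), -2.68 ± 0.66 with CCl4 (adjusted p = 0.0124), 0.37 with ANIT (adjusted p = 0.34) and 0.27 with MDA (adjusted p = 0.356). Cyp4a12b made up 35.1% ± 2.40 of the pair with MDA and 33.9% ± 4.27 with ANIT, against 22.7% ± 5.12 in gavage vehicle livers, where TAA gave 28.7% ± 4.19 and APAP 14.3% ± 5.11. It was 31.7% ± 3.67 with ConA against 12.4% ± 2.80 in intravenous saline livers, and 30.4% ± 4.12 with GAL and 18.5% ± 4.31 with CCl4 against 17.4% ± 1.62 in intraperitoneal saline livers. These shares rest on the split of reads within the pair, which is uncertain, and were not tested.

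Summed over members, the Cyp4a pool ran from 389 ± 86.6 CPM with CCl4 and 602 ± 422 with APAP to 5260 ± 1610 with ConA, against 1150 ± 424 in gavage vehicle livers. It was 3480 ± 1610 with ANIT, 3280 ± 1250 with TAA, 2080 ± 287 with GAL and 1760 ± 1210 with MDA. The Cyp4f pool was 421 ± 60 CPM in gavage vehicle livers and between 81.5 ± 9.17 (GAL) and 139 ± 51.9 (TAA) in treated groups. These orders depend on the scaling: with library totals the mean Cyp4a pool was 3440 CPM with GAL and 3410 with ConA, and the mean Cyp4f pool was 136 with GAL, 61 with ConA, the lowest, and 169 with CCl4, the highest of the treated groups. The Cyp4f share of all 10 members was 26.8% ± 6.93 in gavage vehicle livers, 29.5% ± 0.406 with intraperitoneal saline, 23.2% ± 2.05 with intravenous saline, 23.2% ± 4.32 with CCl4, 19.5% ± 13.5 with APAP, 7.45% ± 2.78 with MDA, 4.09% ± 2.13 with ANIT, 4.05% ± 0.576 with TAA, 3.81% ± 0.743 with GAL and 1.77% ± 0.352 with ConA. With CCl4 and APAP the means of both pools were below those of their vehicles. With the other 5 compounds the mean Cyp4a pool was above and the mean Cyp4f pool below, also with library totals. Cyp4a10 and Cyp4a14 together made up 87.0% to 95.2% of the Cyp4a pool on average in every group.

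**Figure D4:**
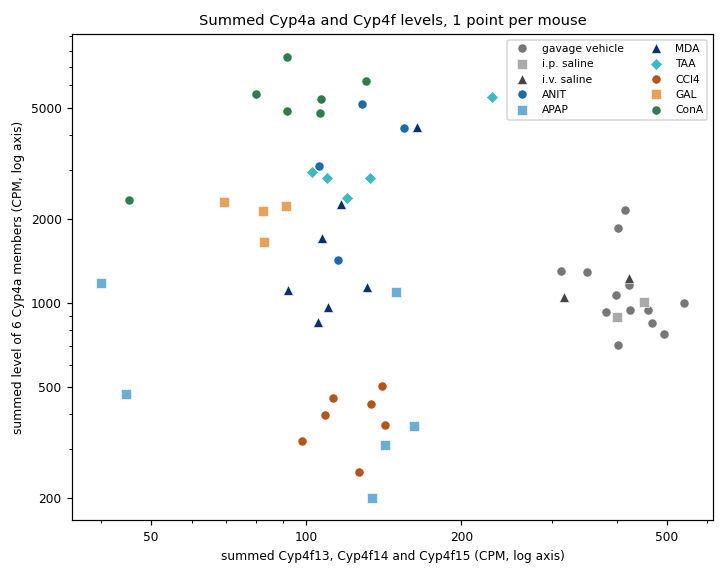
Summed level of the 6 Cyp4a members against the summed level of the 3 Cyp4f members (CPM, both axes log), 1 point per mouse. All vehicle livers lie at 312 CPM or more of Cyp4f and all treated livers at 230 or less, and the treated livers spread along the Cyp4a axis, from 200 CPM with APAP to 7620 with ConA.

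Against all 17 vehicle mice, which adds controls of another route, 10 members were called lower with CCl4 (53.4% of all genes called, 27.2% lower), 3 higher and 5 lower with GAL (52.5% called, 25.1% higher and 27.5% lower) and 5 higher and 4 lower with ConA (68.0% called, 34.3% higher and 33.7% lower). With ANIT 5 were higher and 2 lower (28.0% called, 13.5% higher and 14.5% lower) and with APAP 1 higher and 7 lower (33.4% called, 18.1% higher and 15.3% lower). With MDA 2 were higher and 3 lower (34.2% called, 17.2% higher and 17.1% lower) and with TAA 4 higher and 4 lower (49.7% called, 25.2% higher and 24.5% lower). These comparisons share their controls with those by route. New calls were Cyp4a31 lower with CCl4 (-0.99, adjusted p = 0.00136, not called with library totals at -0.44), and with ConA Cyp4a12b higher (0.96), Cyp4f13 lower (-0.46) and Cyp4v3 lower (-0.43). The rise of Cyp4a12b was lost with library totals (0.29), and so were the falls of Cyp4f13 (-1.03 to -0.20) and Cyp4a12a (-1.12 to -0.29) with GAL. Cyp4f13 lost its call with MDA (-0.24, adjusted p = 0.0668).

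Compounds given by the same route were set against each other in 7 pairs, with p-values adjusted over all genes of each pair. Of the compounds given intraperitoneally, CCl4 gave lower levels than GAL for all 6 Cyp4a members, from -2.51 ± 0.23 for Cyp4a31 to -1.54 ± 0.51 for Cyp4a12a, where 42.5% of all genes were called, 22.2% higher and 20.3% lower. Cyp4a14 was 5.63-fold lower with CCl4 (-2.49 ± 0.15, adjusted p = 5e-07). Leaving out GAL mouse 4 or 7 ended the call of Cyp4a12a (largest adjusted p = 0.0819). Cyp4f14 (0.78 ± 0.16, adjusted p = 0.00235), Cyp4f15 (0.91 ± 0.17, adjusted p = 0.00118) and Cyp4v3 (0.38 ± 0.13, adjusted p = 0.031) were higher with CCl4 than with GAL, the last not with library totals (0.13) or without GAL mouse 4, 7 or 8 (largest adjusted p = 0.124). Cyp4f13 was not called (-0.11, interval -0.39 to 0.18).

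Among gavage compounds, ANIT exceeded APAP in Cyp4a12b (3.58 ± 0.86, adjusted p = 0.0395), Cyp4a14 (2.37 ± 0.47, adjusted p = 0.0212) and Cyp4a10 (2.58 ± 0.68, adjusted p = 0.05, under the threshold before rounding), where 5.98% of all genes were called, 2.35% higher. The first was lost on leaving out any ANIT mouse and the other two without ANIT mouse 2, 3 or 4. APAP was below MDA in Cyp4a12b (-3.58 ± 0.71, adjusted p = 0.00683), Cyp4a12a (-2.06 ± 0.58, adjusted p = 0.0394) and Cyp4a14 (-1.54 ± 0.44, adjusted p = 0.0406), where 9.43% were called (4.05% lower), and Cyp4a14 was not called with library totals (-1.30). APAP was below TAA in Cyp4a14 (-2.51 ± 0.41, adjusted p = 0.0125), where 2.62% were called, 1.61% lower. Cyp4f14 was lower with ANIT than with TAA (-1.0 ± 0.30, adjusted p = 0.0355; 26.2% of all genes called, 15.1% lower), which no fit without an ANIT mouse kept (largest adjusted p = 0.0906), and lower with MDA than with TAA (-1.10 ± 0.27, adjusted p = 0.00764; 30.0% called, 15.8% lower). Between ANIT and MDA edgeR called no member (0.0% of all genes called), with 0 members and 1253 genes at an unadjusted p under 0.05, and DESeq2 called 0 members and 180 genes. The interval of that difference (95%) was -0.37 to 0.61 for Cyp4f14 and -0.56 to 0.52 for Cyp4f15, and wider for Cyp4a10 (-0.02 to 2.22) and Cyp4a14 (-0.05 to 1.76).

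The PPAR alpha target genes, a list of 25 genes of fat handling, were set beside Cyp4a10 and Cyp4a14. With ANIT 17 rose and 2 fell (median log2 fold change 0.79, all genes -0.01), with TAA 13 and 2 (0.38, all genes 0.03) and with ConA 10 and 1 (0.42, all genes 0.03). With CCl4 4 rose and 14 fell (-0.92, all genes 0.10) and with GAL 3 and 10 (-0.53, all genes 0.08), although Cyp4a10 and Cyp4a14 rose with GAL. With APAP 8 rose and 11 fell (-0.07, all genes 0.07), and with MDA 8 and 5 (0.21, all genes 0.03). Among all genes 12.8% to 26.4% were called higher and 14.2% to 24.0% lower with each compound. With library totals the counts were 9 and 3 with ANIT, 6 and 7 with ConA and 5 and 4 with GAL, and the median turned to -0.23 with ConA and 0.22 with GAL. The lipid droplet gene Cidec rose with all 7 compounds, from 3.17 with CCl4 to 7.89 with ConA. The hepatokine Fgf21 rose with ANIT (7.17), MDA (5.31), TAA (3.65), APAP (2.73) and CCl4 (2.27), and the acyl-CoA thioesterase Acot1 with TAA (3.09), ConA (3.01) and GAL (1.12). Acsl1, which activates long-chain fatty acids, fell with all compounds except ConA (-1.0, not called), most with GAL (-3.22). The thiolase Acaa1b fell with CCl4 (-2.30), MDA (-1.24) and APAP (-1.17).

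**Figure D5:**
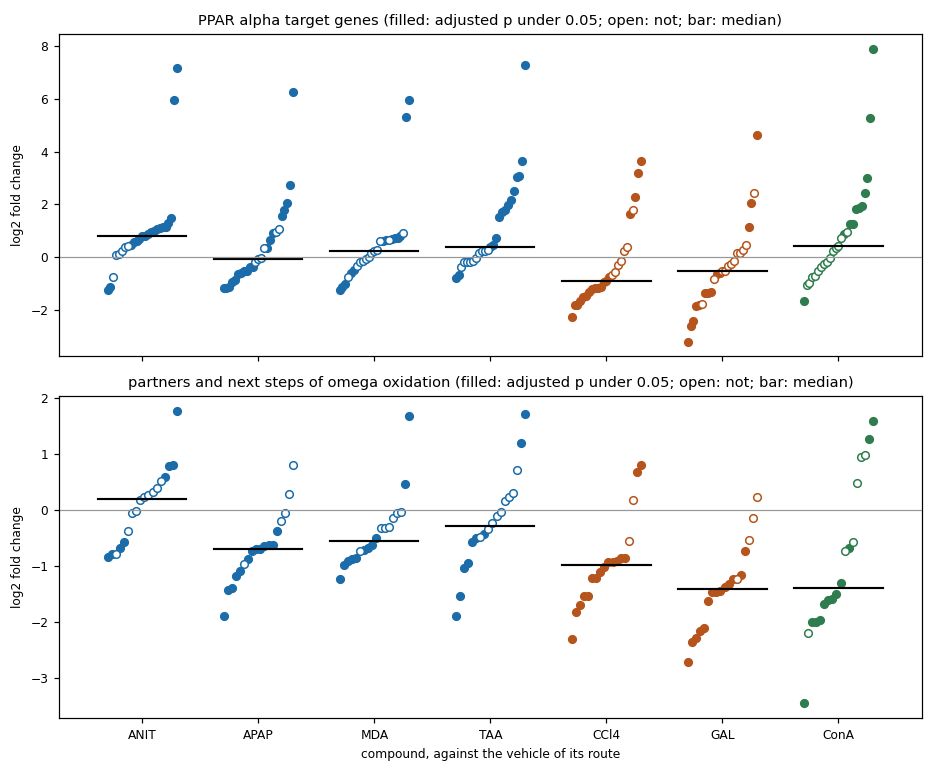
Log2 fold change against the route vehicle of each PPAR alpha target gene (top) and each partner or next-step gene of omega oxidation (bottom), by compound. Points are genes, filled where the adjusted p was under 0.05, and bars are medians. PPAR alpha target genes have medians of 0.79 with ANIT and -0.92 with CCl4, and the partner list has medians of -1.41 with GAL and -1.40 with ConA.

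Among 18 partners and next-step genes of omega oxidation, falls with TMM outnumbered rises with 6 compounds and equalled them with ANIT. These are the electron donors of P450 enzymes, the dehydrogenases that finish the dicarboxylic acid, and the peroxisomal proteins that shorten it. The shares of all genes called were those given for the PPAR alpha list, and medians over all genes lay between -0.01 and 0.10. With CCl4 2 rose and 14 fell (median -0.98), with GAL 0 and 14 (-1.41), with APAP 0 and 13 (-0.70), with ConA 2 and 10 (-1.40), with MDA 2 and 9 (-0.56), with TAA 2 and 7 (-0.29) and with ANIT 4 and 4 (0.20). With library totals the falls were 8 with CCl4, 3 with GAL and 13 with ConA. Por, the reductase that feeds electrons to every microsomal P450, rose with ANIT (1.77), MDA (1.68), TAA (1.2), CCl4 (0.81) and ConA (1.59) and was not called with APAP (0.29) or GAL (0.23). The fatty aldehyde dehydrogenase Aldh3a2 fell with APAP (-1.89), ConA (-1.31) and CCl4 (-1.22). The alcohol dehydrogenase Adh1 fell with all 7 compounds, from -2.36 with GAL to -0.68 with ANIT.

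Male-biased, growth hormone dependent genes were set beside Cyp4a12a, which is not in that list. Of 13 tested, 9 fell and 1 rose with ANIT, and none rose with the other 6. Falls numbered 10 with APAP, 8 with MDA, 6 with TAA, 10 with CCl4, 11 with GAL and 5 with ConA. The medians lay between -1.79 (GAL) and -0.67 (TAA), against -0.01 to 0.10 over all genes, of which 14.2% to 24.0% were called lower. With library totals the GAL count was 4. Hsd3b5, a male-specific steroid dehydrogenase, fell with all 7 compounds and never overlapped its controls, from 89.1 ± 36.3 CPM in gavage vehicle livers to 0.154 ± 0.115 with MDA. Among female-biased liver genes 0 to 3 rose and 0 to 3 fell with each compound, of 7 to 11 tested. Of all genes 12.8% to 26.4% were called higher. The growth hormone effector Stat5b fell with APAP (-0.75), MDA (-0.34), TAA (-1.34), CCl4 (-1.11), GAL (-1.26) and ConA (-1.21) and was not called with ANIT (-0.27). Bcl6, a repressor in the same pathway, fell with all compounds except ConA (0.16), from -2.25 with MDA to -1.77 with APAP. Ppara itself rose with TAA (0.45), fell with CCl4 (-1.16) and was not called with the other 5, at 0.96 with ConA and -1.07 with GAL. Its partner Rxra fell with TAA (-1.14), CCl4 (-1.27) and GAL (-1.52) and was not called with the other 4.

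Genes of leukotriene B4 synthesis and sensing were set beside Cyp4f14, and of the 6 to 8 tested 0 to 2 rose and 1 or 2 fell with each compound, where 12.8% to 26.4% of all genes were called higher and 14.2% to 24.0% lower. Ptgr1, which inactivates leukotriene B4 by another reaction, fell with ANIT (-2.58), MDA (-1.49), TAA (-0.77) and ConA (-3.45). The receptor gene Ltb4r1 rose with ConA (2.39), TAA (1.89) and MDA (1.02), and the 5-lipoxygenase activator Alox5ap with TAA (2.42) and APAP (2.01). Lta4h, which makes leukotriene B4, was called only with CCl4 (-0.47). Of the 10 further Cyp4 genes in the table, 4 or 5 passed the filter in these comparisons. Cyp4f18, known from neutrophils, rose with TAA (2.03), GAL (1.92) and APAP (1.19), and its treated livers overlapped the controls in the last of these. Cyp4f16, unlike the Cyp4f members above, rose with CCl4 (1.83), APAP (1.12) and TAA (0.78). Cyp4b1 fell with CCl4 (-0.81) and MDA (-0.40) and Cyp4f39, named after its values were seen, with TAA (-1.61), and none of these further genes was called with ANIT or ConA.

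Neutrophil markers moved with the compounds as well. Their summed level was 127 to 294 CPM with ConA against 5.87 to 6.05 in intravenous saline livers. With TAA it was 153 to 780 against 0.666 to 48.3 in gavage vehicle livers. All 6 markers were called higher with ConA and 4 of 4 tested with TAA. The sum was 13.6 to 44.4 CPM with ANIT, 11.0 to 254 with APAP and 6.5 to 117 with MDA. It was 9.55 to 70.1 with CCl4 and 19.6 to 34.6 with GAL against 3.24 to 3.67 in intraperitoneal saline livers. Ly6g was at 0 in every gavage vehicle mouse, and the other 5 markers were not. The 7 hepatocyte markers summed to 20600 to 30100 CPM with CCl4 and 25900 to 34200 with GAL against 52200 to 61000 in intraperitoneal saline livers, and 5 and 6 of them fell. Their part in the falls of the Cyp4 members was not tested, and in bulk tissue fewer cells of a type and less RNA per cell cannot be told apart. With ANIT, APAP and TAA the hepatocyte sums, 57600 to 107000, 63700 to 89600 and 67000 to 112000 CPM, lay within the gavage vehicle range of 49700 to 118000, and with MDA they ran from 54000 to 126000. With ConA they ran from 40300 to 86600 CPM, past both ends of the intravenous saline range of 50900 to 65700, and 1 of the 7 markers was called higher and 1 lower. The fitted falls of Cyp4f14 on the log2 scale were -2.92 with ANIT, -2.50 with APAP, -1.91 with TAA and -3.03 with MDA. They were -2.61 with ConA, -2.08 with CCl4 and -2.95 with GAL. Kupffer cell markers summed to 24.3 to 49.2 CPM with ConA against 271 to 274 in intravenous saline livers, and all 5 were called lower. With each other compound 1 or 2 of the 5 Kupffer cell markers were called higher and 0 to 2 lower. Of 6 monocyte and macrophage markers 0 to 4 were called higher and 0 to 2 lower with each compound, of 5 cholangiocyte markers 0 to 2 and 0 to 2, of 5 endothelial markers 0 to 2 and 0 to 3, of 5 stellate markers 0 to 3 and 0 to 4, and of 2 to 4 tested T cell markers 0 and 0 or 1, where 28.2% to 50.5% of all genes were called in either direction. The part of these cells in the members' values was not tested.

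Over the 10 group means of log2(CPM + 1), the genes most like Cyp4a14 among 8032 were Cyp4a10 (Pearson r = 0.972), Vps11 (0.946) and Net1 (0.942). Those most like Cyp4a12a were Cyp2e1 (0.956), Cyp2c37 (0.939) and Phyh (0.936). Those most like Cyp4f14 were Akr1c20 (0.989), Car3 (0.985) and Hsd3b5 (0.974), and those most like Cyp4v3 were Isoc2a (0.985), Ugt2a3 (0.979) and Pdk1 (0.978). As deviations from the group means over the 57 mice, Cyp4a10 and Cyp4a14 had r = 0.92, Cyp4a12a and Cyp4a12b 0.89, Cyp4f14 and Cyp4f15 0.82, and Cyp4a10 and Cyp4f14 0.05. These values are descriptions over points that share a library and its scaling, and copies share reads.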

How the data were processed

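Single-end RNA-seq of 57 mouse livers was analysed from a table of estimated counts per gene that the authors deposited. The submitters' processing notes name Salmon 1.6.0, R 4.1.3 and the build GRCm39, without their roles. Over 4208 genes with 1 transcript, the smallest value in the table fell with transcript length (Spearman -0.944), so the estimated counts appear to be corrected for length by the authors' processing, which the labels do not state. The values were rounded to whole numbers, filtered with filterByExpr, scaled with TMM and tested with edgeR 4.0.16 (quasi-likelihood, R 4.3.3). Intervals (95%) use the t distribution with the degrees of freedom of that test. Benjamini-Hochberg adjustment ran over all genes of a comparison, and a gene was called at an adjusted p under 0.05. Each compound was compared with its route vehicle, with all 17 vehicle mice and, within a route, with each other compound, fitting only the groups compared. CPM are TMM-scaled, and errors of levels are SDs. Totals ran from 13826343 to 35075809, no row lacked a gene identifier, and no pair of libraries was identical. Alternatives used DESeq2 1.42.0, limma 3.58.1 on log2(CPM + 1), other scalings and filters, summed copies, a replicate block, a fit of all mice, and leaving out 1 treated or saline mouse at a time. The code was tested on simulated data. The members and gene lists were chosen with earlier results of these data known. Named genes are the 10 members, Ppara, Rxra, Stat5b, Bcl6 and Por, the 3 genes most like a member, and per list and comparison at most the 3 called genes with the largest change and no overlap with the route vehicle. For genes named in this way, called values in other comparisons are given as well. A gene that this rule would name is not reported here. The lists on Cyp4 relatives, fat metabolism, sex bias, leukotrienes and cell types are described by counts, and 2 listed symbols, Cyp4a28 and Tf, matched no row. The reference used for sequences (GENCODE M21 and RefSeq, GRCm38) is of another build than the counts, so only its own coordinates are given.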

Additional observations from a re-analysis of the deposited data

Results flagged for a closer look

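Among 70 combinations of a member and a group of 4 to 10 mice, 11 had 1 mouse far from the rest on the log2(CPM + 1) scale. Chance gives about 1 in 20. TAA mouse 1 was the highest of its group in Cyp4a10, at 2790 CPM against 1130 to 1410, in Cyp4a12a, at 167 against 45.8 to 55.2, and in Cyp4a12b, at 86.3 against 16.0 to 24.8. Its hepatocyte marker sum was 112000 CPM against 67000 to 72800 in the other TAA mice, its neutrophil marker sum 153 against 272 to 780 and its TMM factor 0.725 against 0.947 to 1.15, and their part in these levels was not tested. ConA mouse 12 was the lowest of its group in Cyp4a10, at 960 CPM against 2120 to 3370, in Cyp4a31, at 26.3 against 76.4 to 115, in Cyp4f14, at 9.77 against 28.7 to 59.6, and in Cyp4f15, at 4.23 against 12.4 to 22.6. Its hepatocyte marker sum was 40300 CPM against 63000 to 86600, its mitochondrial share 14.6% against 19.1% to 39.3%, and its TMM factor 0.951 against 0.477 to 0.751, and their part was not tested. MDA mouse 1 was the highest in Cyp4a31, at 78.8 CPM against 8.12 to 21.4, and in Cyp4a32, at 129 against 7.49 to 25.9, and had the lowest neutrophil marker sum, 6.50 against 15.4 to 117. APAP mouse 1 was the highest in Cyp4a12b, at 13.1 CPM against 0.457 to 2.31. Its hepatocyte marker sum was 89600 CPM against 63700 to 71700 and its TMM factor 0.768 against 1.12 to 1.24, and their part was not tested. ANIT mouse 3 was the lowest in Cyp4v3, at 36.6 CPM against 54.7 to 57.7, with a hepatocyte marker sum of 57600 against 63200 to 107000.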

How the results depend on the processing

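Counts of called members moved by more than 1.5 times in 29 of 223 alternatives that kept all mice of the compared groups or changed the controls, most of them in compound pairs. With APAP against gavage vehicle, called members went from 8 to 1 with the replicate block and to 5 with gavage mice 7 to 12 alone as controls. With GAL against saline they went from 8 to 5 with all 57 mice in 1 fit. For ANIT against APAP (3 called) the counts were 5 with library totals, 1 without a filter, 7 with DESeq2, 0 with the replicate block, 0 with the number range as a covariate and 8 with all mice. For ANIT against TAA (1 called) they were 2 with DESeq2, 0 with the block and 0 with all mice. For APAP against MDA (3 called) they were 1 without a filter, 0 with the block and 5 with all mice. For APAP against TAA (1 called) they were 3 with library totals, 2 at a mean CPM of at least 5, 4 with limma, 5 with DESeq2, 0 with the block, 3 with the number range and 4 with all mice. For MDA against TAA (1 called) they were 3, 3, 4, 4, 2, 3 and 3 in the same order. The causes were not tested. Leaving out 1 mouse was run for treated and saline mice by route, and elsewhere for ANIT, TAA, GAL and saline mice; gavage vehicle mice were not left out singly, and APAP against MDA had no such fit. It gave 0 to 4 called members for ANIT against APAP (0 without ANIT mouse 2, 3 or 4), 0 to 5 for ANIT against TAA, 1 to 4 for MDA against TAA, and 5 to 8 for GAL against saline (5 without either saline mouse).

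Among single members called under the main or the alternative setting, the sign turned in 1 case: Cyp4a12a with ConA against all vehicles was -0.61 with library totals. Differences called in neither could change sign as well, such as Cyp4a12b with GAL against saline (-0.23, and 0.50 with library totals). Sums of near-identical copies were compared with Cyp4a10 and Cyp4a12a, which make up most of them, and give no value for Cyp4a31, Cyp4a32 or Cyp4a12b. Over both kinds of control, the fall of Cyp4f14 kept its call in 211 of 212 alternatives and that of Cyp4f15 in 210 of 212. With the replicate block under APAP both missed it, at -2.91 (adjusted p = 0.0829) and -2.0 (adjusted p = 0.163). Whether the replicate numbers pair the samples is not known. As deviations from group means, same-numbered mice had a mean correlation with gavage vehicle mice of 0.04 (ANIT), 0.056 (APAP), -0.026 (MDA) and 0.138 (TAA, up to 0.276). Mice of different numbers were not compared in this way, so these values cannot settle it. CCl4 and ConA share 1 number with their saline mice, and CCl4 shares 1 with GAL, so no block could be fitted there. With 2 saline mice per injection route, large as well as small changes can be missed.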
